A study of Aspergillus nidulans with 2 samples.

Results

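The genes for the enzymes that remove superoxide and hydrogen peroxide were followed in the filamentous fungus Aspergillus nidulans (Emericella nidulans) exposed to menadione. They were chosen by gene symbol: every array probe that the platform annotation assigns to the superoxide dismutase genes sod1, sod2 and sod4, the catalase genes catA, cat1 and fgaCat, or the glutathione reductase gene glr1. These 7 of the 2064 genes named on the array had 10 of its 3533 probes, 4 of them assigned to catA and 1 to each of the other genes. The choice of genes was made with earlier results of these data known. Cultures of strain FGSC 26 grew for 18 h at 37 °C. Their mycelia were then moved to fresh minimal-nitrate medium of pH 6.5, either with 0.8 mM menadione (given as its sodium bisulfite compound) or with no addition, and were collected after 6 h. Each 2-colour cDNA array received RNA from both kinds of mycelia. There were 2 arrays with exchanged dyes: menadione RNA carried Cy5 on the flip array and Cy3 on the flop array.

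Menadione is a quinone that takes up single electrons in the cell and passes them to oxygen, which yields superoxide. Superoxide dismutases turn superoxide into hydrogen peroxide and oxygen, and catalases split hydrogen peroxide into water and oxygen. Glutathione reductase restores reduced glutathione, which other enzymes spend on removing peroxides. In fungi these enzymes occur as families whose members differ in their metal, in their place in the cell and in the stage of the life cycle at which they are made.

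Values are read as log2 ratios of menadione over untreated, so that 1 is a 2-fold higher and -1 a 2-fold lower transcript level with menadione. Neither the base nor the direction is stated in the sources used here, and the opposite direction would exchange higher and lower throughout. Both columns were taken to run the same way, since they correlated at a Pearson r of 0.844 across 2265 probes, which are not independent replicates. A dye effect shared by the columns could also give a positive correlation, and its part was not tested. Whether the arrays held RNA of separate cultures is not stated. Errors and p-values therefore cover the spread between these 2 arrays, possibly a technical one, and do not speak of cultures. Because the dyes were exchanged between the arrays, this spread also holds any dye effect of a probe. The design cannot tell such an effect apart from other differences between the arrays. The number of arrays also limits the precision, and how far each spot stood above background was not recorded in the values used.

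The data on these genes were sparse. A ratio on both arrays was present for 4 of the 10 probes (sod1, sod2, 1 catA probe and cat1), against 64.1% of all probes. A further 4 probes had only a flip ratio: sod4, fgaCat and 2 catA probes. The single glr1 probe and the fourth catA probe (number 51) were empty on both arrays, so nothing was measured for glutathione reductase. Among probes with a flip value, the flop value was empty for 4 of 8 here and for 25.7% of all. The rule for leaving a cell empty is not stated.

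The superoxide dismutase probes were all on the side of higher transcript with menadione, in every value present. The catalase probes were on both sides, between genes, between probes of 1 gene and, for cat1, between the arrays. By limma with Benjamini-Hochberg adjustment over all 2265 probes with both values, 1 of the 4 tested probes passed an adjusted p of 0.05, that of sod1, which was higher. The same test called 24.6% of all probes (12.2% higher and 12.4% lower), so a count of 1 in 4 is near the background of the array. A change of 2-fold or more on both arrays, with a shared sign, was found for 0 of the 4 tested probes and for 18.2% of all probes. At 1.5-fold the count was 3 of 4 (sod1, sod2 and catA), against 34.7% of all. Both values were positive for 2 of the 4 (sod1 and sod2) and for 42.8% of all probes, and both were negative for 1 of the 4 (catA) and for 39.4% of all. On the flip array, which holds most of the values, 5 of 8 were above 0, against 50.4% of all.

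**Figure D1:**
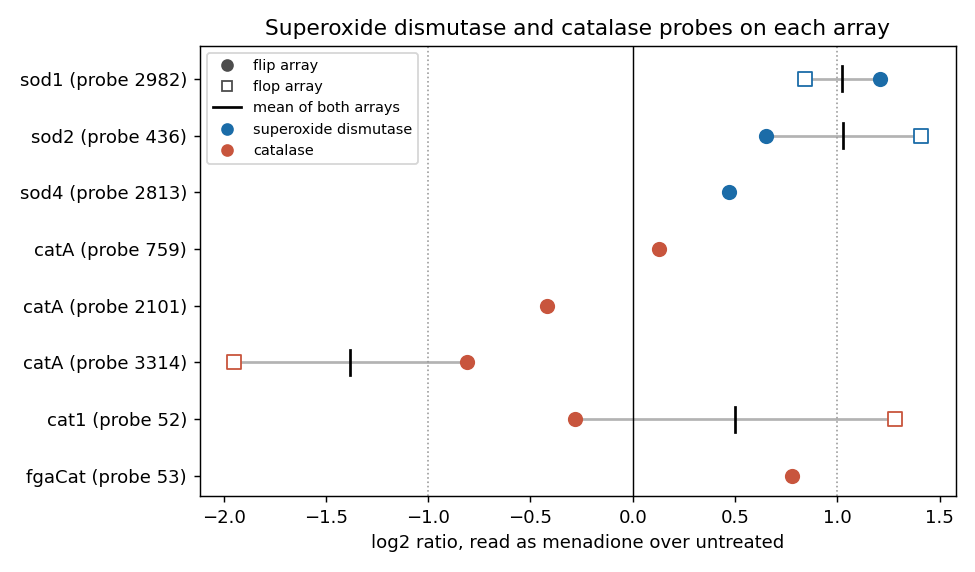
Log2 ratio (horizontal axis, read as menadione over untreated) of each superoxide dismutase probe (blue) and catalase probe (red) with a value (flip array, filled circles; flop array, open squares). Black ticks are means of both arrays, grey lines join the arrays and dotted lines mark 2-fold. The superoxide dismutase values lie between 0.47 and 1.41, all above 0, whereas the catalase values run from -1.95 to 1.28.

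The gene sod1 (ANIA_00241) shares its symbol with the copper-zinc superoxide dismutase of yeast, the enzyme of the cytosol there. Its probe was at 1.21 on the flip array, a 2.31-fold higher level, and at 0.84 on the flop array, a 1.79-fold higher level. Both values are positive and the arrays were close together, with only the flip value past 2-fold. The mean log2 ratio was 1.025 ± 0.26 (SD, n = 2), or 2.03-fold, with a 95% interval by limma from 0.47 to 1.58. The transcript rose by this test (limma adjusted p = 0.0453), close to the limit: all called probes had adjusted p-values between 0.0351 and 0.0499, and sod1 ranked 491st by p of the 557 that passed. The call was lost when probes of each gene were averaged and genes were tested in place of probes (limma adjusted p = 0.0519), although sod1 has 1 probe and its value did not change. It was also lost when probes with a value on 1 array joined the test (limma adjusted p = 0.0582) and when variances were not moderated (adjusted p = 0.317).

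The gene sod2 (ANIA_05577) carries the symbol of the manganese superoxide dismutase of yeast mitochondria. Its probe was at 0.65 on the flip array, 1.57-fold higher, and at 1.41 on the flop array, 2.66-fold higher. Both values are positive, as for sod1, but here the flop array held the larger one. The mean of 1.03 ± 0.54 (SD, n = 2) was almost the same as that of sod1, and they stood next to each other, at places 254 and 255 from the top, among the 2265 means. The larger spread left sod2 short of the threshold by limma (adjusted p = 0.0800), with a 95% interval from 0.20 to 1.86. The arrays gave opposite orders: the sod1 ratio exceeded that of sod2 by 0.56 on the flip array and was below it by 0.57 on the flop array, a mean difference of -0.005 ± 0.80 (SD, n = 2). No order between these genes can be read from these arrays.

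The third superoxide dismutase gene, sod4 (ANIA_05148), had only a flip value, at 0.47, a 1.39-fold higher level. It was the lowest of the 3 superoxide dismutase values on that array, where 74.6% of all values were lower. The corresponding shares were 92.0% for sod1 and 81.1% for sod2. On the flop array, 79.4% of all values were lower than that of sod1 and 91.1% lower than that of sod2. The superoxide dismutase values thus lay in the upper part of each array without reaching its extremes.

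The catalase gene catA (ANIA_08637) encodes the spore catalase of A. nidulans, whose protein is linked to conidia and ascospores. Of its 4 probes, number 3314 was the only one with both values, at -0.81 on the flip array (1.75-fold lower) and at -1.95 on the flop array (3.86-fold lower). Both values are negative, and the flop value was the farthest from 0 of all values of these enzymes, with 4.8% of the values of that array below it. The mean was -1.38 ± 0.81 (SD, n = 2), 2.60-fold lower, with a 95% interval from -2.53 to -0.23. It did not pass over all probes (limma adjusted p = 0.0848).

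The other catA probes did not show a decrease of this size. On the flip array, the only one with values for them, probe 759 was at 0.13 and probe 2101 at -0.42, beside -0.81 for probe 3314. One lay slightly above 0 and the others below, none of them reaching 2-fold on that array. They spanned 0.94 on the log2 scale, with a median of -0.42 and an SD of 0.47 over the 3 probes, which share 1 RNA pair and are not replicates. Such a span was not wide for this array: the 60 genes with 3 probes measured on the flip array, catA included, had a median span of 1.385 (quartiles 0.955 and 2.19), and 13 of them had a narrower one than catA. The only probe measured on both arrays was thus also the lowest of the catA probes on the flip array, and the mean of -1.38 describes that probe and not the gene.

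The catalase gene cat1 (ANIA_09339) carries the symbol of a catalase of Aspergillus fumigatus mycelium. Its probe was at -0.28 on the flip array, 1.21-fold lower, and at 1.28 on the flop array, 2.43-fold higher. The arrays disagreed in sign, so no direction can be given. The mean of 0.50 ± 1.10 (SD, n = 2) was smaller than its SD, and the 95% interval from -1.02 to 2.02 covers changes of 2-fold either way (limma adjusted p = 0.463). Opposite signs are the exception on these arrays, since 82.2% of all probes had the same sign on both.

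The gene fgaCat (ANIA_05918) carries the symbol of a catalase gene that lies in the ergot alkaloid cluster of A. fumigatus. It was measured on the flip array alone, at 0.78, or 1.72-fold higher, with 84.1% of the values of that array below it. This was the highest catalase value on the flip array, above those of sod2 and sod4. The 5 catalase values of the flip array ran from -0.81 to 0.78 with a median of -0.28, and 2 of them were positive. The 3 superoxide dismutase values ran from 0.47 to 1.21, so the ranges of the enzyme classes overlapped. With 1 value each, sod4, fgaCat and the 2 further catA probes have no replicate check. They also lack a value with exchanged dyes, so a dye effect is not balanced in them as it is in the means of both arrays.

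**Figure D2:**
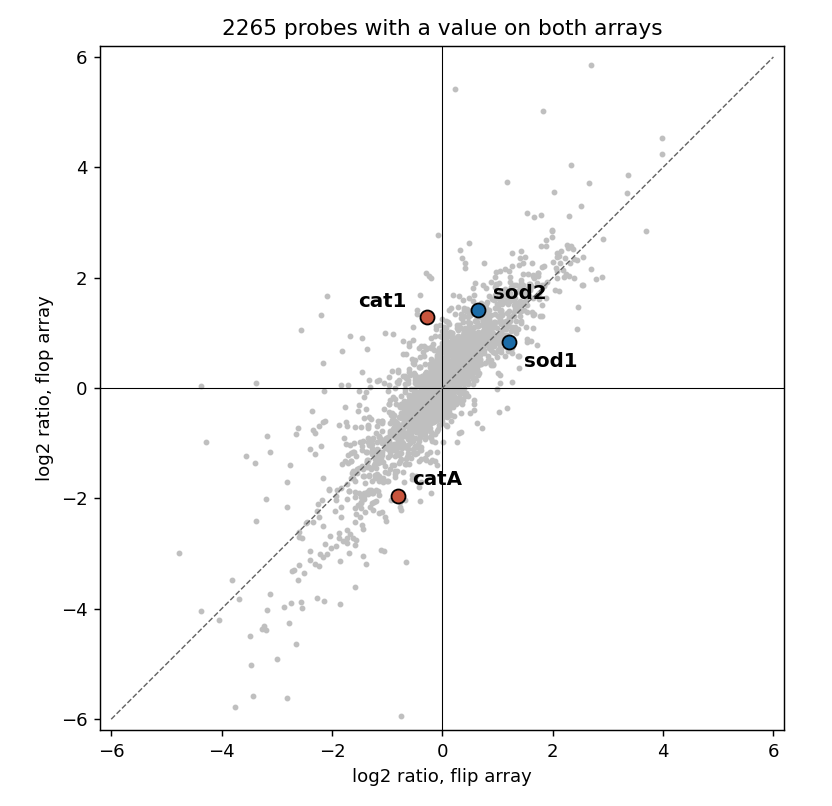
Log2 ratio on the flip array (horizontal) against the flop array (vertical) for the 2265 probes with both values (grey), with the 4 tested superoxide dismutase (blue) and catalase (red) probes named. The dashed line marks equal values. The sod1 and sod2 probes lie on either side of that line in the area where both values are positive, catA lies where both are negative, and cat1 (-0.28 and 1.28) lies where the signs differ.

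The ratios of sod1 and sod2 were above that of catA probe 3314 on both arrays. This order follows from the signs given above and is not a further result. The log2 ratio of sod1 exceeded that of catA probe 3314 by 2.02 on the flip array and by 2.79 on the flop array, a mean difference of 2.405 ± 0.54 (SD, n = 2). For sod2 against the same catA probe, the differences were 1.46 and 3.36. Against cat1, sod1 was higher by 1.49 on the flip array but at -0.44 relative to it on the flop array. The difference in ratio from sod1 and sod2 thus had 1 sign on both arrays for catA probe 3314. Probes 759 and 2101 of catA had no flop value. On the flip array they lay nearer to sod1 and sod2, at 0.13 and -0.42. For cat1 the difference had 1 sign with sod2 (0.93 and 0.13) but not with sod1. These 4 pairs were not tested. The genes were chosen with earlier results of these data known, which also limits the tests of single probes, that of sod1 included.

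These probes were measured with more disagreement between the arrays than most. The median absolute difference between the arrays was 0.28 over all probes. The sod1 probe differed by 0.37, more than 59.9% of all probes, and the sod2 probe by 0.76, more than 85.1%. The catA probe differed by 1.14, more than 93.7%, and the cat1 probe by 1.56, more than 97.2%. The median SD between the arrays was 0.67 for the 4 probes and 0.198 for all 2265. The disagreement had no common direction, since the flop value was above the flip value for sod2 and cat1 and below it for sod1 and catA. Dye and array changed together, so dye effects of single probes cannot be told apart from other sources of this disagreement. The flop value was the farther from 0 for 3 of the 4 and for 62.0% of all probes, on an array whose values had an SD of 1.16 against 0.965 on the flip array.

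**Figure D3:**
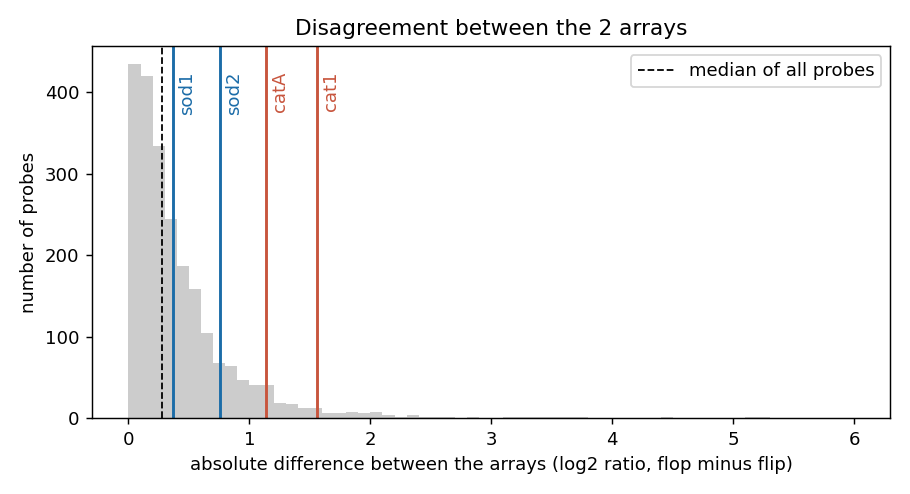
Number of probes (vertical) by absolute difference between their log2 ratios on the 2 arrays (horizontal), for all 2265 probes with both values. Coloured lines mark sod1 (0.37), sod2 (0.76), catA (1.14) and cat1 (1.56), and the dashed line marks the median of 0.28, which lies to the left of all 4.

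The calls also changed with the scaling of the arrays. With both arrays scaled to a common spread, sod1 (limma adjusted p = 0.0205), sod2 (adjusted p = 0.0230) and catA (adjusted p = 0.0197) all passed, with means of 1.05, 1.00 and -1.34. Under that scaling 38.8% of all probes passed, so 3 of 4 stands beside a higher background. Centring each array on its median, under which 30.2% of all probes passed, left sod1 as the only call and brought sod2 to a limma adjusted p of 0.0526. The size of the means moved little under either scaling, and cat1 stayed above an adjusted p of 0.4 in all settings that kept the assumed direction.

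**Figure D4:**
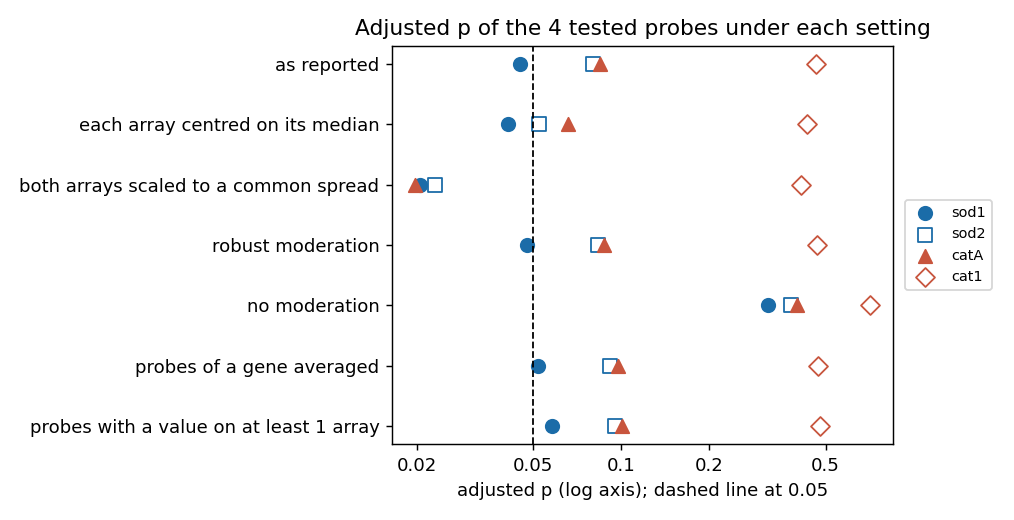
Adjusted p (horizontal, log axis) of the 4 tested probes under the reported fit and 6 other settings that keep the assumed direction of both arrays (vertical). The dashed line marks 0.05. Blue marks superoxide dismutase and red catalase: sod1 lies left of the line in 4 of these 7 settings, sod2 and catA only with a common spread, and cat1 in none.

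The wider set of oxidative stress genes was hardly represented by symbol. Of 65 other symbols of antioxidant enzymes and their regulators that were looked for, 4 were on the array, each with 1 probe. None of these was an enzyme of peroxide removal. Matching was by symbol alone, and the list can hold other names of 1 gene, including other names of the enzyme genes above. A symbol that was not found, such as catB, catC, sodA or glrA, therefore does not mean a gene absent from the array. The stress-activated MAP kinase gene sakA had a flip value of 0.90 and a flop value of 1.09. It rose by limma (mean 0.995 ± 0.13, SD, n = 2, adjusted p = 0.0403), 1 call among the 2 probes of this list with both values, on an array where 24.6% of all probes passed and 12.2% passed as higher. The sakA call was lost when probes with 1 value joined the test (limma adjusted p = 0.0524) and when variances were not moderated (adjusted p = 0.296). The gene atfA, a bZIP transcription factor that acts with SakA, was at 0.61 and 0.66, which did not pass (limma adjusted p = 0.0623) except with a common spread (adjusted p = 0.0386). The probes of yap1 and skn7, named after regulators of the oxidative stress response in yeast, were empty on both arrays. Most genes on the array carry only a locus tag, so thioredoxin, peroxiredoxin and glutathione genes may be present without being found here.

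Other genes with a symbol lay close to each enzyme gene in their pair of values. Likeness was measured as the distance between the pairs of log2 ratios over the 2 arrays, among 274 probes of genes with a symbol. Nearest to sod1 were sam50 (1.17 and 0.75, distance 0.098) and cpcA (1.03 and 0.85, distance 0.18). Nearest to sod2 were end3 (0.59 and 1.43, distance 0.063) and hmgX (0.75 and 1.33, distance 0.13). The catA probe had 1 close neighbour, rho1 (-0.68 and -2.03, distance 0.15), and then phzA at a distance of 0.52. The neighbours of cat1 were farther, with swr1 (-0.12 and 1.07) at 0.26 and ccpA at 0.42. With 2 arrays such likeness says only that both ratios were close.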

How the data were processed

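Scanning used a GenePix 4000B, per the labels' protocols and the design text, and the authors took ratios with GenePix Pro 3.0 and normalized them by LOESS within blocks in SAS for Windows version 8. The deposited log2 ratios, 1 column per array, are titled summaries of normalized data, so duplicate spots and possibly several hybridisations were combined by an unstated rule. Background correction is not stated either, and the log base was taken as 2. Natural logarithms would make the means of sod1 2.79-fold higher, sod2 2.80-fold higher and catA 3.97-fold lower. Scanner files were not used here.

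The R package limma 3.58.1 (R 4.3.3, lmFit and eBayes, 2-sided) set the ratios of the 2265 probes with both values against 0. The threshold was 0.05 after Benjamini-Hochberg adjustment. Each probe has 1 residual degree of freedom, so the test leaned on 1.95 prior degrees of freedom. The procedure was tested on simulated data, with independent errors drawn from the fitted variance model and 200 probes changed. That does not show how often calls in the real data are false. Probes of 1 gene were kept apart. Every probe of the 7 genes is named, with the 2 nearest probes of genes with a symbol for each tested one, and the wider list was matched by symbol. All 7 genes matched RefSeq assembly ASM1142v1 by Entrez gene ID. The genes and lists were chosen with earlier results of these data known.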

Additional observations from a re-analysis of the deposited data

How the results depend on the processing

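Reading the values as natural logarithms for the folds of single genes, and all alternatives for sakA and atfA, were added after seeing the data, unlike the others. Against 1 of the 4 tested probes past the threshold and 557 of all probes, a common spread gave 3 and 878, and an adjusted p under 0.10 gave 3 and 951. Averaging probes of a gene by limma gave 0 (3 at an unadjusted p under 0.05) and 277 genes, and adding probes with 1 value gave 0 of 8 (3 unadjusted) and 305. Without moderation the counts were 0 (0 unadjusted) and 0 (390 unadjusted). With the sign of the flop array turned they were 0 (0 unadjusted) and 0 (2 unadjusted) by limma, and sod2 was then at -0.38, catA at 0.57 and cat1 at -0.78, opposite to their reported signs, with sod1 at 0.185. In the wider list, sakA was then at -0.095 and atfA at -0.025. Centring (1 and 683) and robust moderation (1 and 537) changed neither count by more than 1.5 times. Against 0 probes at least 2-fold on both arrays, 3 were at least 1.5-fold and 2 would be 2-fold if the values are natural logarithms, while 1 to 3 were 2-fold on 1 array alone: sod1 on the flip array, and sod2, catA and cat1 on the flop array. A probe with 1 value has no spread of its own, so its p-value among those 8 rests on the prior variance of all probes alone (sod4 adjusted p = 0.286, fgaCat 0.165 by limma). With either array left out entirely, no spread can be estimated and no test was run. Menadione and untreated RNA are already paired within the ratio of each array. No further pairing between arrays was possible because both belong to 1 group.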
